A study of Mus musculus with 18 samples.

Results

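Malat1, Neat1, Kcnq1ot1, Lncenc1, Dancr, Norad, Tug1 and Miat are long noncoding RNAs (lncRNAs) of the nucleus, of stem cells or of both, and they were followed here along polysome gradients of mouse embryonic stem cells (ESCs). The members were chosen by name and found by their Ensembl gene identifiers, which gave 8 of 51467 genes in the table of counts. Of these, 7 passed the filter of 3 CPM (counts scaled to a common library total) in at least 3 libraries and were among the 12851 genes tested, whereas Miat did not pass. Malat1 and Neat1 were 16.4-fold to 24.8-fold lower in high polysomes than in monosomes in both genotypes. Kcnq1ot1 differed between monosomes and high polysomes by less than the spread between replicates. Lncenc1 was the only member called lower in Dgcr8 knockout (KO) cells, in all 3 fractions. From monosomes to high polysomes, 9.63%, 13.6% and 17.9% of all tested genes were called lower, and 22.5%, 40.7% and 26.3% of tested lncRNAs.

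The cells were wild type (WT) ESCs, for which the study's methods name the V6.5 line, and Dgcr8 KO ESCs. DGCR8 is needed to process primary microRNA transcripts, so that its loss removes canonical microRNAs. Both were kept in LIF, 2i and 15% serum and were given 100 ug/ml cycloheximide for 2 min, which holds ribosomes on RNA. Gradients of 10 to 50% sucrose were cut into monosome, low polysome (2 to 4 ribosomes) and high polysome (4 or more ribosomes) fractions, with 3 gradients per genotype and 18 libraries in all. Each genotype is represented by its own line, so that other differences between the lines and the loss of Dgcr8 cannot be told apart. Nothing states that gradients of 1 genotype came from separate cultures, so p-values measure the spread between these gradients only.

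Totals were 1151649 to 4984833 counts per library, with the lowest totals in monosomes. The targeted gene kept 38 to 183 reads per library labelled KO against 67 to 251 in WT, with a log2 change of -1.01 in high polysomes (SE 0.23, limma adjusted p = 2.76e-04) and -0.56 in monosomes (SE 0.19, adjusted p = 0.0185). Reads at the 3′ end need not report on a deletion elsewhere in the gene. All 10 ESC markers were tested, and their summed level was 3520 to 6099 CPM in WT and 3476 to 4467 CPM in KO libraries. Of 6 fibroblast markers, which feeder cells would carry, 2 were tested, with sums of 7.01 to 12.7 and 2.33 to 21.5 CPM, and Postn was at 0 in WT cells. Of 6 primitive endoderm markers 2 were tested (3.31 to 10.8 and 1.94 to 8.91 CPM), of 5 neural markers 2 (44.1 to 128 and 22.2 to 44.6 CPM), and of 4 trophoblast markers 1 (5.02 to 9.37 and 5.09 to 9.92 CPM). Within each fraction the neural sum was lower in every KO than in every WT library (22.2 to 29.9 against 75.1 to 80.4 CPM in monosomes, 22.8 to 32.3 against 44.1 to 64.5 in low polysomes and 31.1 to 44.6 against 86.3 to 128 in high polysomes). The ESC sum was lower in every KO library in high polysomes (3824 to 4467 against 5563 to 6099 CPM). In reads over all fractions, not scaled for depth, Sox1 (768 in WT, 290 in KO) and Tubb3 (885, 496) carried the neural sum. Pax6 (23, 40), Map2 (22, 25) and Neurod1 (5, 19) had more reads in KO cells. Of the ESC markers, Klf4 (18197, 13540), Dppa5a (22534, 15998) and Pou5f1 (1280, 989) had fewer reads in KO cells, and the others had more. KO libraries had higher totals in monosomes (1707918 to 2436888 against 1151649 to 1578231 counts) and in high polysomes (3352066 to 4984833 against 2495249 to 3063940). More reads in KO cells, as for Tdgf1 (17434, 17532), Nanog (6735, 8588) or Map2, are therefore not by themselves a higher level. The part of these marker differences in the results below was not tested.

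An lncRNA carries no long reading frame, and many act where they are made. Malat1 gathers in nuclear speckles, which hold splicing factors, and Neat1 is the scaffold of paraspeckles, nuclear bodies built around it. Kcnq1ot1 is transcribed from the paternal allele inside Kcnq1 and silences an imprinted domain in cis. Norad is mostly cytoplasmic and binds PUMILIO proteins, which repress the messages they bind. Dancr and Lncenc1 are known from undifferentiated cells, and Tug1 and Miat are studied mainly in neural and other differentiated tissues. A gradient sorts particles by size, so a read in a fraction does not by itself show that a ribosome sat on the RNA.

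The transcripts differ in sequence elements that bear on how they were measured and on what could bind them. Sequences are from GENCODE M21 transcripts on GRCm38, 5′ to 3′, and each stretch lies in an exon of the transcript named. Libraries were primed on poly(A), and the mature Malat1 end is known to be a genome-encoded A-rich tract, not an added tail. Malat1 held a single run of 10 or more A, shown here in capitals (chr19:5795979-5796008, minus strand), 298 bases before the annotated end of its 6983 bases.
Malat1 A run: cctagctttAAAAAAAAAAAAgcaaaagac
Kcnq1ot1 held 10 such runs over 93092 bases, the longest of 41 A, and the other 6 members held none. Of the longest transcripts of tested lncRNA genes, 21.5% held such a run, and of those of protein-coding genes 17.5%.

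Norad stood out by its PUMILIO elements, the letters TGTANATA on the transcript strand, which are shown in capitals in 4 of its windows because they name its best known partners.
Norad element at base 651: tagaagtcctgTGTATATAatatgaaaaag
Norad element at base 1336: tggcttttcttTGTACATAgtgtatgtaaa
Norad element at base 1523: actgactgctgTGTATATAgtggacaacag
Norad element at base 2754: cagtactactaTGTATATAggggacaaatt
These windows lie at chr2:156392311-156392340, chr2:156391626-156391655, chr2:156391439-156391468 and chr2:156390208-156390237 on the minus strand, in the only exon of the gene. Norad held 11 matches in 4915 bases, and only 5 of 12257 transcripts compared held more. All 4 of its windows of 1000 bases held at least 1, against 10.8% of such windows in tested lncRNAs and 8.24% in tested protein-coding transcripts. Kcnq1ot1 held 18 matches in its far longer transcript (0.19 per 1000 bases), Neat1 held 4, Miat 1 and the others none.

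The microRNAs that Dgcr8 KO cells lack include the ESC cell cycle (ESCC) family. The 3 shown here have the same seed (bases 2 to 8, in capitals), whereas miR-290a-3p and miR-291b-3p differ from it at base 8.
miR-291a-3p: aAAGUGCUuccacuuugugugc
miR-294-3p: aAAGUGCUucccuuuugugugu
miR-302b-3p: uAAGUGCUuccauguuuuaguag
These mature sequences are from RefSeq (GRCm38.p6), at chr7:3218968-3218989, chr7:3220691-3220712 and chr3:127545275-127545297, all on the plus strand. The letters that pair with the seed of these 3, AGCACTT, had 11 matches in Kcnq1ot1, 4 in Neat1, 2 in Tug1, 1 in Malat1 and 0 in the other 4. The windows of Malat1, of 1 Neat1 match and of both Tug1 matches are shown with those letters in capitals.
Malat1 base 590: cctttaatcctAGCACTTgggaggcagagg
Neat1 base 11239: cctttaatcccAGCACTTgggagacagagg
Tug1 base 1751: cctctttttatAGCACTTtacaggttcaaa
Tug1 base 1769: tacaggttcaaAGCACTTtcatatacatgt
They lie at chr19:5802065-5802094, chr19:5834222-5834251, chr11:3644735-3644764 and chr11:3644717-3644746, all on the minus strand. The Malat1 and Neat1 windows were identical at 28 of 30 bases, and the Malat1 window and the first Tug1 window at 17. Of the windows not shown, those of Kcnq1ot1 base 83063, Neat1 base 11871 and Kcnq1ot1 base 28005 were the most like Malat1, at 25, 21 and 19 bases. The shorter core GCACTT, contained in the 7-base letters, was present in 20.8% of 1000-base windows of tested lncRNAs and 21.5% of those of protein-coding transcripts. By this core, 5 of 20 Neat1 windows, 17 of 93 Kcnq1ot1 windows, 1 of 6 in Malat1 and in Tug1, and none in Lncenc1, Dancr, Norad or Miat held a match, although Norad held 1 match that no whole window contained. A match is a description of letters and was not read as a binding site.

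**Figure D1:**
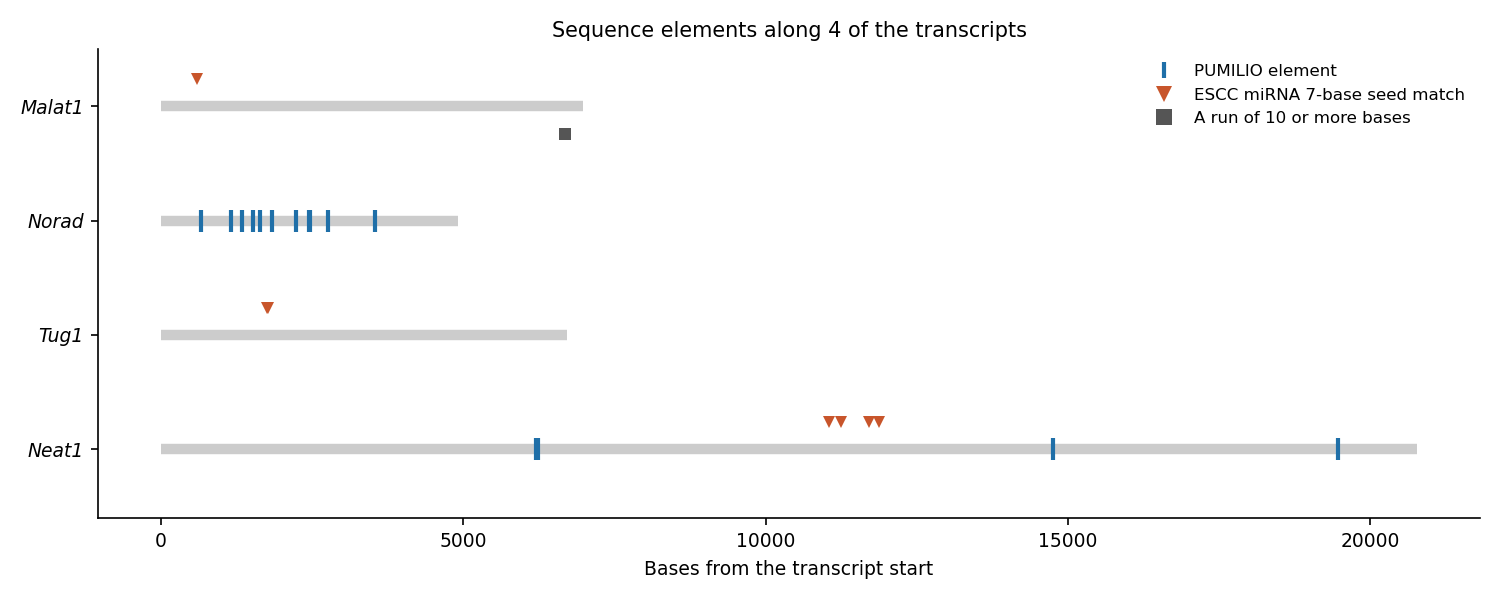
Positions of PUMILIO elements, ESCC 7-base seed matches and runs of 10 or more A along the longest transcripts of Malat1, Norad, Tug1 and Neat1, in bases from the transcript start. The 11 PUMILIO elements of Norad lie between bases 651 and 3533 of 4915, and the A run of Malat1 lies 298 bases before its end.

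Malat1 (ENSMUSG00000092341.2, chr19:5795690-5802672, minus strand, 1 exon) had the highest level of the members. Where reads come from 3′ ends only, and not from priming at internal A runs, levels do not grow with transcript length. Levels below are CPM scaled with TMM factors. In WT monosomes it was at 3530, 5041 and 4152 CPM in replicates 1 to 3, in low polysomes at 765, 716 and 916 CPM, and in high polysomes at 174, 228 and 187 CPM. In KO cells it was at 6910, 9881 and 6299 CPM in monosomes, at 1393, 1706 and 1237 CPM in low polysomes and at 308, 399.5 and 231 CPM in high polysomes. Every monosome library of a genotype lay above every low polysome library, and each of these above every high polysome library. Such separations of libraries, here and below, are a description that was not set against its share over all genes. The translation level, as the study names the high polysome to monosome ratio, was -4.42 on the log2 scale in WT (SE 0.16, limma adjusted p = 2.34e-24) and -4.63 in KO cells (SE 0.16, adjusted p = 1.01e-25). These ratios are a 21.5-fold and a 24.8-fold lower level in high polysomes. Only 69 of 12851 genes had a lower WT value, 36 of them among the 494 lncRNAs tested.

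The step from monosomes to low polysomes already took a large part of this difference. Malat1 was 5.28-fold lower in low polysomes than in monosomes in WT (log2 -2.40, SE 0.15, adjusted p = 5.23e-16) and as much lower in KO cells (log2 -2.40, SE 0.15, adjusted p = 2.73e-16). The interaction of genotype and fraction was close to 0 for this ratio (log2 0.0015, 95% interval -0.43 to 0.43) and small for the translation level (log2 -0.21, 95% interval -0.67 to 0.25, adjusted p = 0.533). The polysome profile of Malat1 was therefore not shown to differ between the genotypes.

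Malat1 had more reads in KO than in WT cells in each fraction, under the fold threshold of 1 on the log2 scale. The log2 change was 0.85 in monosomes (SE 0.15, adjusted p = 1.19e-05), 0.85 in low polysomes (SE 0.15, adjusted p = 1.31e-05) and 0.64 in high polysomes (SE 0.17, adjusted p = 0.0016). The lowest KO library lay above the highest WT library in all 3 fractions, by 231 against 228 CPM in high polysomes. Without WT replicate 2, which had the highest WT monosome value, the change in monosomes was 1.04 (adjusted p = 1.76e-05) and would be called. In bulk RNA, more cells that express a gene and more RNA per cell cannot be told apart.

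Neat1 (ENSMUSG00000092274.2, chr19:5824708-5845478, minus strand, 1 exon), which lies on the same strand of chromosome 19 as Malat1, had nearly the same profile at a lower level. In WT cells it was at 233, 311 and 285 CPM in monosomes, at 53.6, 71.1 and 68.0 CPM in low polysomes and at 16.8, 18.7 and 14.65 CPM in high polysomes. In KO cells the values were 241, 388 and 232 CPM, then 41.2, 53.5 and 44.9 CPM, then 14.5, 18.95 and 13.1 CPM. The fractions did not overlap in either genotype. The translation level was -4.04 in WT (SE 0.22, adjusted p = 3.87e-19) and -4.19 in KO cells (SE 0.21, adjusted p = 1.45e-20) on the log2 scale, and 133 of 12851 genes were lower in WT. The low polysome to monosome ratio was -2.10 in WT (SE 0.16, adjusted p = 9.79e-14) and -2.59 in KO cells (SE 0.16, adjusted p = 4.75e-16). Short and long isoforms of Neat1 share their 5′ part and are counted together here.

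Neat1 was not called between genotypes. Its log2 change in monosomes was 0.03 (95% interval -0.27 to 0.33, adjusted p = 0.906), -0.47 in low polysomes (95% interval -0.82 to -0.12, adjusted p = 0.0208) and -0.13 in high polysomes (95% interval -0.65 to 0.39, adjusted p = 0.681). In low polysomes the highest KO library, at 53.5 CPM, lay just under the lowest WT library, at 53.6 CPM. The interaction for the low polysome to monosome ratio did not pass (log2 -0.50, SE 0.23, adjusted p = 0.165), so the low polysome difference was not shown to be larger than that in monosomes.

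**Figure D2:**
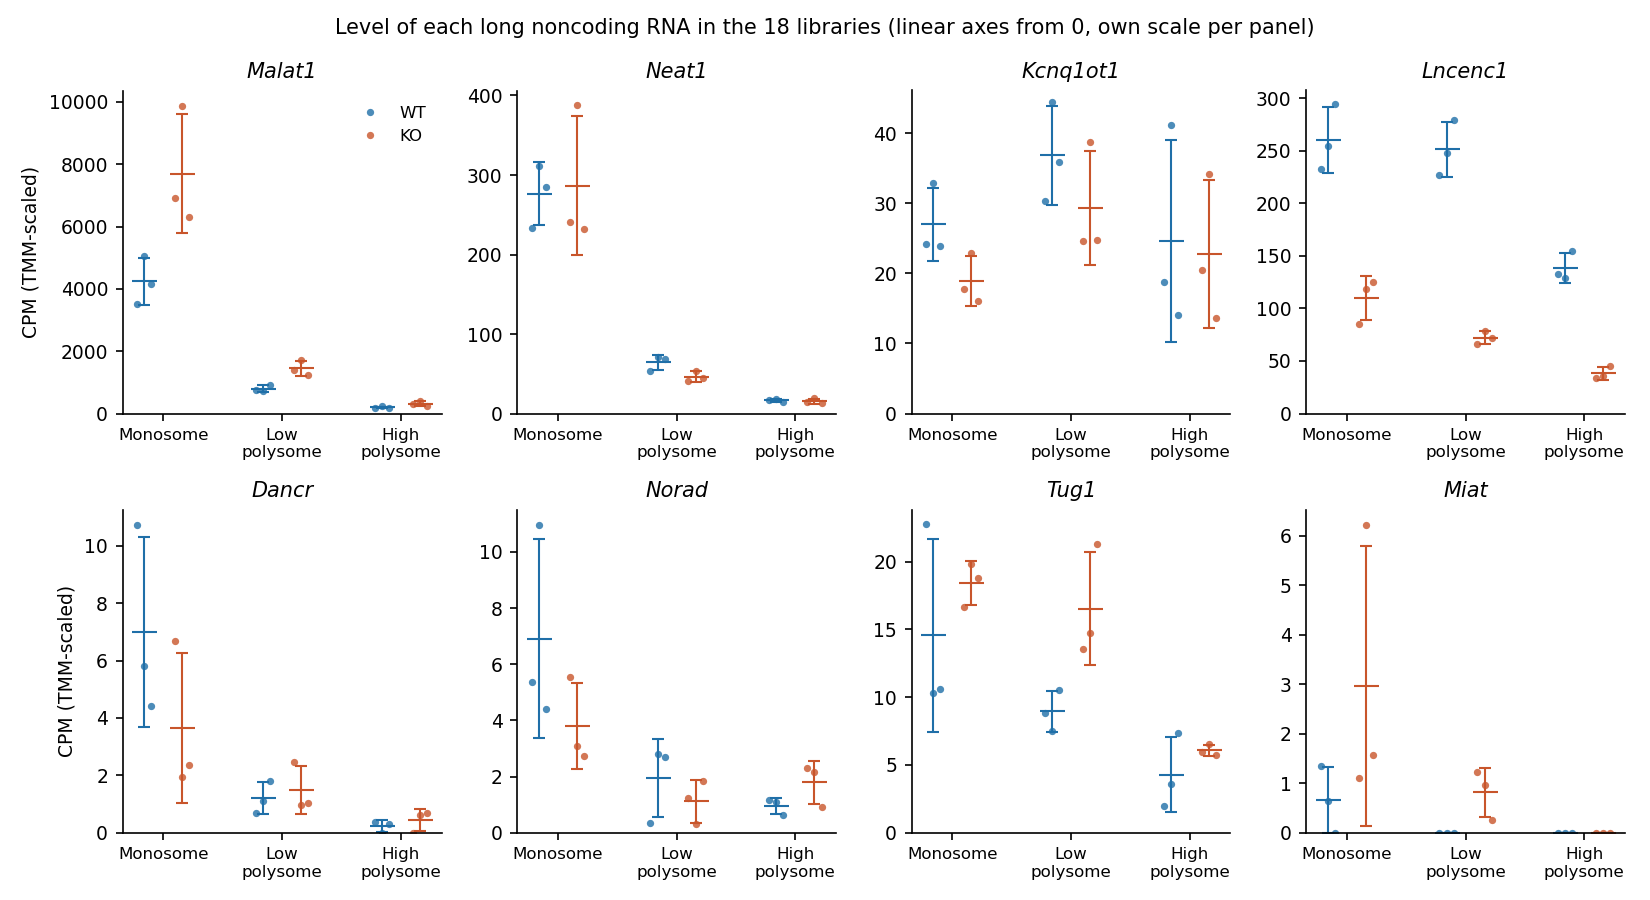
TMM-scaled CPM of the 8 lncRNAs in the 18 libraries by fraction (x axis), WT and Dgcr8 KO; points are libraries and bars are the mean and SD of 3. Malat1 and Neat1 drop at each step from monosomes to high polysomes, Kcnq1ot1 shows no such drop, and the Lncenc1 libraries of KO cells lie under those of WT in each fraction.

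Kcnq1ot1 (ENSMUSG00000101609.1, chr7:143212155-143296549, minus strand, 1 exon) had no called difference of low or high polysomes from monosomes, unlike Malat1 and Neat1. In WT it was at 24.1, 32.9 and 23.9 CPM in monosomes, at 30.3, 44.4 and 35.8 CPM in low polysomes and at 18.7, 41.1 and 14.01 CPM in high polysomes. In KO cells it was at 17.8, 22.9 and 16.1 CPM, at 24.6, 38.8 and 24.7 CPM and at 20.5, 34.2 and 13.6 CPM. High polysome and monosome libraries overlapped in both genotypes, and replicate 2 was the highest in every group. The translation level was -0.31 in WT (95% interval -0.96 to 0.34, adjusted p = 0.431) and 0.12 in KO cells (95% interval -0.49 to 0.73, adjusted p = 0.74), the latter -0.14 under total counts without TMM factors. Of 494 lncRNAs tested, 93.5% had a lower WT value and 96.2% a lower KO value.

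Low polysomes were the fraction with the highest mean level of Kcnq1ot1 in both genotypes, at 36.8 ± 7.07 CPM in WT and 29.4 ± 8.16 CPM in KO cells (SD, n = 3). The low polysome to monosome ratio did not pass the test without a block, at 0.43 in WT (SE 0.30, adjusted p = 0.267) and 0.59 in KO cells (SE 0.29, adjusted p = 0.0964). With the gradient as a replicate block it was 0.45 in WT (limma adjusted p = 0.0969) and 0.64 in KO cells (adjusted p = 0.0131). The KO value then passed by its adjusted p, under the fold threshold. No difference between genotypes was called, and the largest was in monosomes, where every KO library lay under every WT library (log2 -0.52, 95% interval -1.21 to 0.17, adjusted p = 0.237). Such a separation of libraries was not set against its share over all genes, here or for other members. It is a description and adds nothing to the test. The gene as counted, in GENCODE M14, held 84395 bases, whereas the M21 transcript described above runs 8697 bases further at its 3′ end. Reads from that last part, where 1 of the 10 A runs and 1 of the 11 seed matches lie, were not counted, so the values above are those of the part before it. The counting was done on the strand opposite to Kcnq1, which had 27 reads in all libraries together. Where along the transcript its reads lie is not recorded in a table of counts per gene, so the part of the A runs given above was not tested.

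Lncenc1 (ENSMUSG00000078952.9, chr13:97482701-97497007, plus strand, 3 exons), named for its expression in ESCs, had the largest called differences between genotypes. In WT it was at 232, 255 and 294 CPM in monosomes, at 227, 248 and 279 CPM in low polysomes and at 133, 129 and 155 CPM in high polysomes. In KO cells it was at 85.6, 118 and 125 CPM, at 66.1, 78.5 and 72.0 CPM and at 33.4, 36.0 and 45.3 CPM. KO and WT libraries did not overlap in any fraction, a separation that was not set against its share over all genes. The gene was lower in KO cells by 2.36-fold in monosomes (log2 -1.24, SE 0.14, adjusted p = 2.97e-09), by 3.48-fold in low polysomes (log2 -1.80, SE 0.14, adjusted p = 2.14e-14) and by 3.60-fold in high polysomes (log2 -1.85, SE 0.15, adjusted p = 1.56e-13). Of all tested genes, 18.1% were called in monosomes (8.43% higher, 9.63% lower), 25.0% in low polysomes (11.4% higher, 13.6% lower) and 33.1% in high polysomes (15.1% higher, 17.9% lower). Of the lncRNAs tested, 22.5%, 40.7% and 26.3% were called lower in the same order. Lncenc1 was the 1 member of 7 called in each.

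The profile of Lncenc1 along the gradient was shallow. In WT cells low polysomes and monosomes were alike within the replicate spread (log2 -0.05, 95% interval -0.31 to 0.22, adjusted p = 0.823), and the translation level was -0.90 (SE 0.14, adjusted p = 5.09e-07), short of the fold threshold. In KO cells the translation level was -1.51 (SE 0.16, adjusted p = 4.08e-11) and was called, and the low polysome to monosome ratio was -0.60 (SE 0.15, adjusted p = 7.28e-04). All 3 KO gradients, at -1.34, -1.70 and -1.45, lay under all 3 WT gradients, at -0.81, -0.98 and -0.92. The interaction was -0.61 (95% interval -1.03 to -0.19, adjusted p = 0.0233), a 1.53-fold difference under the fold threshold, and it did not pass without WT replicate 1 (adjusted p = 0.0836) or KO replicate 2 (adjusted p = 0.101). For the ratio of low polysomes to monosomes it was -0.56 (SE 0.20, adjusted p = 0.0573). With the gradient as a replicate block this value was -0.56 as well (limma adjusted p = 0.0189), again under the fold threshold. Even so, 83.6% of tested lncRNAs had a lower translation level than Lncenc1 in WT and 80.0% in KO cells.

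**Figure D3:**
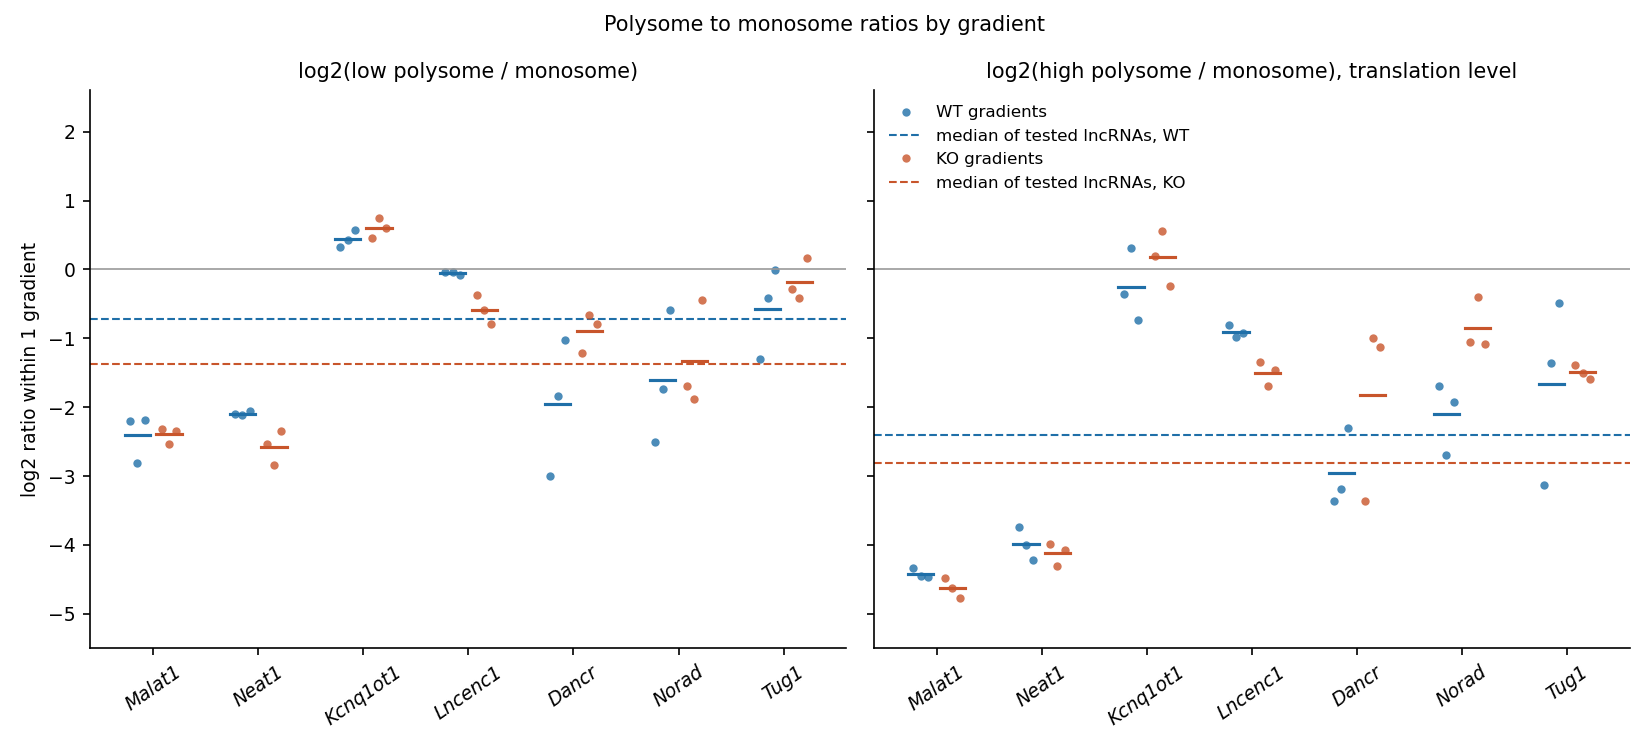
log2 ratios of low polysomes (left) and high polysomes (right) to monosomes for the 7 tested lncRNAs; points are single gradients (CPM with a prior count of 2), solid bars their means and dashed lines the medians of 494 tested lncRNAs. Malat1 and Neat1 lie under the lncRNA medians in both panels, and Kcnq1ot1 and Lncenc1 lie above them.

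Tug1 (ENSMUSG00000056579.17, chr11:3639785-3648812, minus strand, 3 exons), found in nucleus and cytoplasm, was intermediate. In WT it was at 22.8, 10.3 and 10.6 CPM in monosomes, at 8.81, 7.53 and 10.5 CPM in low polysomes and at 1.95, 3.60 and 7.32 CPM in high polysomes. In KO cells it was at 16.7, 19.8 and 18.8 CPM, at 13.5, 14.7 and 21.3 CPM and at 5.95, 6.52 and 5.75 CPM. WT replicate 1 had both the highest monosome and the lowest high polysome value. The translation level was -1.79 in WT (SE 0.41, adjusted p = 3.01e-04) and -1.60 in KO cells (SE 0.29, adjusted p = 8.51e-06). Without WT replicate 1 the WT value was -0.995 (adjusted p = 0.0757), so the WT call rests on that gradient, whereas the KO gradients, at -1.38, -1.50 and -1.59, were close together. Low polysomes held about as much Tug1 as monosomes in KO cells (log2 -0.18, 95% interval -0.66 to 0.29, adjusted p = 0.555).

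Between genotypes, Tug1 had more reads in KO low polysomes (log2 0.88, SE 0.26, adjusted p = 0.0044), where all KO libraries lay above all WT libraries, but under the fold threshold. Without WT replicate 3 the change was 1.01 (adjusted p = 0.0055) and without KO replicate 1 it was 1.01 (adjusted p = 0.002), and it would then be called. In monosomes it was 0.40 (95% interval -0.21 to 1.02, adjusted p = 0.313) and in high polysomes 0.59 (95% interval -0.22 to 1.41, adjusted p = 0.201), with overlapping libraries.

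Norad (ENSMUSG00000102869.2, chr2:156388065-156392979, minus strand, 1 exon) was read too rarely for more than its main profile, and its counts are given in place of CPM. WT libraries held 8, 17 and 5 reads in monosomes, 1, 10 and 9 in low polysomes and 3, 3 and 2 in high polysomes. KO libraries held 10, 8 and 7 reads, then 4, 1 and 7, then 7, 7 and 4. Norad passed the filter through monosomes, with 3 WT and 2 KO libraries of the 5 at the filter level, so that a lower value in polysomes was favoured by the filter. The WT translation level was -2.68 (SE 0.65, adjusted p = 6.43e-04), and the ratio of summed counts was 0.131 with an exact 95% interval of 0.052 to 0.293 for counting error only. In KO cells it was -1.10 (SE 0.55, adjusted p = 0.0765), which was called with the gradient as a replicate block (-1.15, adjusted p = 0.0457) and under total counts (-1.36, adjusted p = 0.03).

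The low polysome to monosome ratio of Norad was called lower in both genotypes, at -2.01 in WT (SE 0.57, adjusted p = 0.0049) and -1.71 in KO cells (SE 0.63, adjusted p = 0.0253). The WT call was lost without WT replicate 1 (-1.44, adjusted p = 0.0592) or 2 (-1.96, adjusted p = 0.0599), and the KO call without KO replicate 1 (-1.61, adjusted p = 0.0999) or 2 (-1.24, adjusted p = 0.162). The interaction of the translation level was 1.58 with a 95% interval of -0.15 to 3.31 (adjusted p = 0.174). A difference in profile between the genotypes was thus not detectable at this depth, and the interval admits large ones.

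Dancr (ENSMUSG00000106943.1, chr5:74093060-74095406, plus strand, 1 exon) had counts as low. WT libraries held 16, 9 and 5 reads in monosomes, 2, 4 and 6 in low polysomes and 1, 0 and 1 in high polysomes. KO libraries held 12, 5 and 6 reads, then 8, 3 and 4, then 0, 2 and 3. It also passed the filter through monosomes, with 3 WT and 1 KO library. The annotation used for counting held a second gene inside Dancr, of 575 exonic bases on the same strand with 0 reads in all libraries, and a small nucleolar RNA gene, Snora26. Reads that overlap 2 genes were left out of the count, so the Dancr values describe only the rest of its 2347 bases. Small same-strand genes with 0 reads also lie inside Malat1 (1), Neat1 (3), Tug1 (4) and Miat (4), and reads over them are likewise not in the counts.

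The WT translation level of Dancr was -4.26 (SE 0.77, adjusted p = 1.18e-05), with 2 reads in high polysomes against 30 in monosomes. The ratio of these sums after scaling was 0.0328 (exact 95% interval 0.0038 to 0.129, counting error only). In KO cells the translation level was -2.67 (SE 0.74, adjusted p = 0.0018), and without KO replicate 1 it was -1.56 (adjusted p = 0.07) and no longer called. The KO sums were 5 and 23 reads (ratio after scaling 0.142, exact 95% interval 0.0422 to 0.382). The low polysome to monosome ratio was called in WT (-2.43, SE 0.57, adjusted p = 7.85e-04) and not in KO cells (-1.06, 95% interval -2.21 to 0.09, adjusted p = 0.126), and their difference did not pass (1.37, SE 0.81, adjusted p = 0.31). As no high polysome library of either genotype held more than 3 reads, no value is given for the difference in translation level between the genotypes.

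Between genotypes, Dancr had a log2 change of -1.18 in monosomes (SE 0.50, adjusted p = 0.0586). It was -1.39 without WT replicate 3 (adjusted p = 0.0404) and -1.60 without KO replicate 1 (adjusted p = 0.0212), and would then be called. Dancr passed the filter through 3 WT monosome libraries and only 1 KO monosome library. A lower KO value in monosomes was thus favoured by the filter, and these values are not read as support for a difference. In high polysomes both genotypes lay at or under 3 reads per library, so no fold is given. Norad in monosomes was at -0.93 (95% interval -1.95 to 0.10, adjusted p = 0.154), and its high polysome sums were 18 reads in KO and 8 in WT cells (ratio after scaling 1.80, exact 95% interval 0.745 to 4.79).

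Miat (ENSMUSG00000097767.8, chr5:112213228-112229395, minus strand, 7 exons), known from heart and nervous tissue, did not pass the filter. WT monosome libraries held 2, 1 and 0 reads, and the other WT libraries held 0. KO libraries held 2, 16 and 4 reads in monosomes, 4, 3 and 1 in low polysomes and 0 in high polysomes. The ratio of KO to WT monosome sums after scaling was 4.42, with an exact 95% interval of 1.33 to 23.1 for counting error only, and 16 of the 22 KO reads came from replicate 2. With 0 reads in every WT polysome library and at most 2 in a WT monosome library, no fold change or call is given for its other comparisons.

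**Figure D4:**
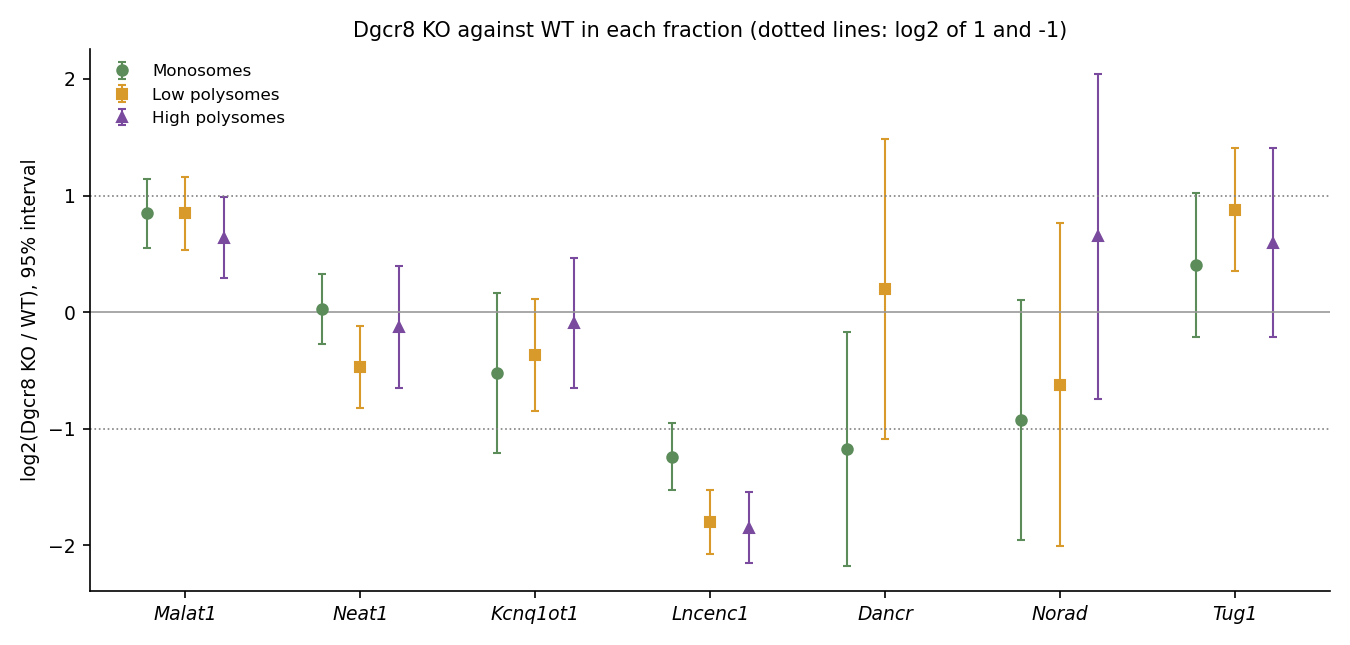
log2 change of KO against WT in each fraction for the 7 tested lncRNAs, with 95% intervals from limma; dotted lines mark the fold threshold, and Dancr in high polysomes, at the floor in both genotypes, is left out. The 3 Lncenc1 values lie between -1.24 and -1.85, the Malat1 values between 0.64 and 0.85, and the Dancr and Norad intervals are the widest.

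As a group, 5 of the 7 tested members had a translation level called lower in WT (Malat1, Neat1, Dancr, Norad and Tug1), and 5 in KO cells (Malat1, Neat1, Dancr, Tug1 and Lncenc1). None was called higher. Over all genes, 30.1% were called in WT, 10.7% higher and 19.3% lower, and 43.0% in KO cells, 17.5% higher and 25.5% lower. Over the 494 lncRNAs tested, 76.1% were called lower in WT and 80.8% in KO cells, so the share of members was no larger than that of lncRNAs in general. The median of the members was -2.68 in WT and -1.60 in KO cells, beside -2.41 and -2.81 for tested lncRNAs and 0.07 and 0.03 for protein-coding genes. For Dancr and Norad the calls are not separate support, given how they passed the filter. The WT median of the members is the value of Norad itself, so it was favoured by the filter too. It is therefore not read against the median of lncRNAs. The low polysome to monosome ratio was called lower for 4 members in WT (Malat1, Neat1, Dancr and Norad) and for 3 in KO cells (Malat1, Neat1 and Norad), and higher for none. Of all genes, 14.1% were called for this ratio in WT (4.54% higher, 9.59% lower) and 16.8% in KO cells (6.34% higher, 10.5% lower), and of lncRNAs 34.4% and 53.4% were called lower.

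No member was called for a change between genotypes in translation level (Dancr with high polysomes at the floor), where 6.29% of all genes were called higher and 8.81% lower (15.1% in all). None was called for a change of the low polysome to monosome ratio, where 1.23% were higher and 3.81% lower (5.03% in all). At an unadjusted p under 0.05, limma gave only Lncenc1 for the former and Neat1 and Lncenc1 for the latter, and edgeR and DESeq2 called none at the same thresholds. The comparisons share libraries, so these counts are not separate evidence. All changes are set against TMM scaling. Scaling by total counts moved the median over genes by -0.33 for the change in translation level, -0.13 for the other interaction, -0.25 for the KO translation level, and 0.10 and -0.22 for KO against WT in monosomes and high polysomes.

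The proteins that build paraspeckles around Neat1 were counted from a list of 14, all tested. Their translation level was called lower for 2 in WT and for 1 in KO cells, and higher for 2 in KO cells, with a median of -0.23 in WT and 0.05 in KO cells. Over all genes, 19.3% were called lower in WT, and 25.5% lower and 17.5% higher in KO cells. The change between genotypes was called higher for 2 of the 14, among them Sfpq (log2 1.137, SE 0.22, adjusted p = 8.38e-05), an RNA-binding protein of the paraspeckle, and not for the other 12 (median of the list 0.60, beside 0.0073 over all genes tested). This change was called higher for 6.29% of all genes and lower for 8.81%. At an unadjusted p under 0.05 limma gave 9 of the 14. The share of all genes at this threshold is not given, here or for the lists below. Such counts are therefore not read as a property of a list. Between genotypes, 1 protein was called lower in monosomes, none in low polysomes (4 at an unadjusted limma p under 0.05) and 1 higher in high polysomes. For all genes the shares were 9.63% lower in monosomes, 25.0% called in low polysomes and 15.1% higher in high polysomes.

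Of 10 nuclear speckle proteins, the bodies where Malat1 gathers, all were tested. The change in translation level was called higher for Srrm1 (log2 1.13, SE 0.17, adjusted p = 2.71e-06), a splicing coactivator, and lower for Rnps1 (-1.22, SE 0.25, adjusted p = 2.73e-04), a component of the exon junction complex. The median of the list was -0.02, and of all genes 6.29% were called higher and 8.81% lower. The translation level was called higher for 1 and lower for 1 in WT, and higher for 2 and lower for 1 in KO cells. The shares over all genes, in the same order, were 10.7% and 19.3% in WT, and 17.5% and 25.5% in KO cells. In KO against WT, none was called in monosomes or low polysomes (5 and 7 at an unadjusted limma p under 0.05), and 1 was higher and 2 lower in high polysomes. Over all genes, 18.1% and 25.0% were called in monosomes and low polysomes, and 15.1% were higher and 17.9% lower in high polysomes.

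Of 6 PUMILIO proteins and other Norad partners, none was called for a change in translation level or for KO against WT in any fraction. Among all genes, 15.1% were called for the former, and 18.1%, 25.0% and 33.1% for the latter from monosomes to high polysomes. At an unadjusted limma p under 0.05 there was 1 for the change in translation level, and 2, 5 and 1 for KO against WT from monosomes to high polysomes. Their median change in translation level was 0.27. The translation level was called lower for 1 in WT and for the same 1, Rbmx, in KO cells (log2 -2.91 and -1.66), and higher for Prpf19 in KO cells (1.27, SE 0.25, adjusted p = 2.53e-05). Of all genes, 19.3% were lower in WT, and 25.5% were lower and 17.5% higher in KO cells. Rbmx, which binds Norad, has near-identical copies elsewhere in the genome, so its count is uncertain.

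Of 11 genes of the imprinted domain around Kcnq1ot1, 7 were tested. Phlda2, an imprinted gene of the domain, was the 1 gene called in the change of translation level (log2 -1.12, SE 0.41, adjusted p = 0.0357). Over all genes, 8.81% were called lower and 6.29% higher. In KO against WT, monosomes gave 1 gene called higher, low polysomes gave 2 higher with 2 lower, and high polysomes gave 1 higher with 2 lower, while Kcnq1ot1 was called in none. The shares of all genes were 8.43% higher in monosomes, 11.4% higher with 13.6% lower in low polysomes and 15.1% higher with 17.9% lower in high polysomes. The list's median change by fraction was 0.42, -0.18 and -0.66, from monosomes to high polysomes, beside -0.05, 0.0042 and -0.08 over all genes tested. Tspan32, a tetraspanin gene, was higher in all 3 fractions (log2 3.17, 3.06 and 3.22, SE 0.35, 0.22 and 0.27), and Cd81, another tetraspanin gene, was higher in low polysomes (1.34, SE 0.13, adjusted p = 4.84e-11). Phlda2 was lower in low (log2 -1.64, SE 0.21, adjusted p = 1.61e-08) and high polysomes (-1.90, SE 0.29, adjusted p = 5.38e-07). The translation level was called higher for 3 of the 7 in WT and for 1 in KO cells, with 1 lower in KO cells. It was called higher for 10.7% of all genes in WT and 17.5% in KO cells, with 25.5% lower in KO cells.

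The lncRNAs that host small nucleolar RNAs were counted as a set of spliced lncRNAs, several of which are known to be bound by ribosomes. Of 17 listed, 14 were in the table and all were tested. All 14 were called lower in translation level in both genotypes, with medians of -4.11 in WT and -3.66 in KO cells, as they were in the low polysome to monosome ratio (medians -1.96 and -2.01). For the translation level, 19.3% of all genes and 76.1% of tested lncRNAs were called lower in WT, and 25.5% and 80.8% in KO cells. For the other ratio, 9.59% and 34.4% were called lower in WT, and 10.5% and 53.4% in KO cells. Malat1 and Neat1 lay in the range of these genes in WT, which ran from Snhg5 at -3.42 to Snhg12 at -4.96. In KO cells the range was -2.72 (Snhg9) to -4.25 (Snhg12), with Neat1 inside it at -4.19 and Malat1 below it at -4.63. The change in translation level was called higher for 5 of the 14, led by Snhg8 (log2 1.47, SE 0.29, adjusted p = 1.15e-04), Epb41l4aos (1.40, SE 0.25, adjusted p = 3.24e-05) and Snhg6 (1.1401, SE 0.26, adjusted p = 9.61e-04), and for none of the members. It was called higher for 6.29% of all genes and 3.64% of tested lncRNAs. In KO against WT, the number called lower was 7, 8 and 3 from monosomes to high polysomes, where 9.63%, 13.6% and 17.9% of all genes and 22.5%, 40.7% and 26.3% of lncRNAs were.

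The genes most like each member over the 18 libraries, by Pearson's r of log2 CPM among genes with a mean of 10 CPM or more, are named for each. They are a description, since all genes share the same libraries and fractions. For Malat1 they were the pseudogene H2-M6-ps (r 0.983) and the lncRNA Meg3 (r 0.982), and for Neat1 the lncRNAs Snhg20 (r 0.987) and 1110038B12Rik (r 0.985). For Lncenc1 they were Acd (r 0.982) and Srrm4os (r 0.981). For Kcnq1ot1 the nearest were the protein-coding Cd2ap (r 0.843) and Zfp638 (r 0.786). For Tug1 they were Arv1 (r 0.911) and Gm43314 (r 0.909), for Dancr Rps12 (r 0.911) and mt-Nd2 (r 0.906), and for Norad Epc1 (r 0.863) and Zscan12 (r 0.848).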

How the data were processed

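RNA of 18 gradient fractions was sequenced with QuantSeq 3′ FWD. The table the authors deposited gives unnormalised read counts for each gene. The authors trimmed reads with Cutadapt 1.14, aligned them to mm10 with STAR 2.5.3a, kept unique alignments, and counted them by strand over GENCODE M14 basic exons with featureCounts 1.5.3. Molecular identifiers are not mentioned in the methods. The exact intervals of summed counts cover counting error only, whereas limma's intervals rest on the spread between libraries. The gene length column, per the file headers, served as annotation.

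Members were matched by Ensembl identifier, with Norad listed under 2900097C17Rik in M21. The 12851 genes that reached 3 CPM in 3 libraries or more were fitted with limma-voom (limma 3.58.1, R 4.3.3), TMM factors (edgeR 4.0.16) and 6 group means without a block. The interaction term and filter follow the study's methods. Each two-sided p was adjusted over these genes by the Benjamini-Hochberg method. A call needed an adjusted p below 0.05 with a log2 change beyond 1 in size. The adjusted p-values are limma's, save where edgeR or DESeq2 is named. In the smallest library, 3 counts were the floor. The fit was also run on simulated data, whose outcome is not reported here and backs no result above.

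The fractions of 1 number come from 1 gradient, as the labels' protocol and titles show, so they are paired within a genotype (correlation of deviations 0.032 to 0.135 over 18 pairs). WT and KO libraries share only a number (correlation 1.75e-04 to 0.102 over 9 pairs). These ranges overlap, so the pairing rests on the labels and not on the correlations.

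The members and the lists were chosen with earlier results of these data known. All members are named, as are, for each list, at most 3 genes with the largest called change in translation level, and for each tested member the 2 genes with the highest correlation. A gene that this rule would name is not reported here. The genes named for other list comparisons, namely Rbmx, Prpf19, Tspan32, Cd81, Snhg5, Snhg9 and Snhg12, were chosen after their values were seen. Alternatives were edgeR, DESeq2 1.42.0, other scalings and filters, no fold threshold, only the groups compared, a replicate block, and leaving out each gradient.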

Additional observations from a re-analysis of the deposited data

Results flagged for a closer look

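The translation level of Lncenc1 differed between the genotypes by the interaction's own test, with a log2 change of -0.61 (SE 0.21, limma adjusted p = 0.0233), under the fold threshold. The high polysome to monosome ratio was lower in 3 of 3 KO gradients than in any WT gradient. This separation was not set against its share over all genes and adds nothing to the test. When each gradient was left out in turn, the change was between -0.68 and -0.51, and it did not pass without WT replicate 1 (-0.56, adjusted p = 0.0836) or KO replicate 2 (-0.51, adjusted p = 0.101). All of edgeR, DESeq2 and the replicate block gave values from -0.62 to -0.61 with an adjusted p of 0.0062 to 0.0195. Under total counts without TMM factors it was -0.94 (adjusted p = 4.4e-04), where the median of all genes moved by -0.33 as well.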

How the results depend on the processing

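Leaving out the fold threshold had the most effect, giving 1 member called for the change in translation level and 2, 4 and 2 for KO against WT in monosomes, low and high polysomes. With 10 CPM in at least 3 libraries, 3 members were called lower for the WT translation level and 2 for the WT low polysome to monosome ratio, since Dancr and Norad were then not tested. Leaving out 1 gradient at a time gave 0 to 1 members for the change in translation level (the 1 being Dancr, whose high polysomes are at the floor), 1 to 2 for KO against WT in monosomes and 1 to 2 in low polysomes. The further member in monosomes was Malat1 or Dancr, and for Dancr the filter favoured a lower KO value. With the replicate block, 6 members were called for the KO translation level, the sixth being Norad (-1.15), and no other call changed. Of 927 values of single members under these alternatives, 905 kept their side of the thresholds, 6 lost a call and 16 gained one. No call reversed in sign. Norad, Dancr and Miat had at most 17 counted reads in a library, and these low counts limit what their comparisons can show. For Dancr and Miat, reads over the genes inside them were left out of the count.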

Other observations

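Neat1 and Kcnq1ot1 had their highest level in replicate 2 in all 6 groups, and Malat1 did in 5 of 6. Of 12851 genes tested, 65 were highest in replicate 2 in all 6 groups, 57 in replicate 1 and 38 in replicate 3. Of the 494 lncRNAs, the numbers were 8, 1 and 0 in the same order. Lncenc1 was highest in replicate 3 in 5 of 6 groups and Dancr in replicate 1 in 4 of 6. WT and KO libraries of 1 number share only that number, and its part in these values was not tested.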
